A study of Mus musculus with 8 samples.

Results

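The IFIT and IFITM genes are 2 families of interferon-induced antiviral effectors, and 9 of their mouse genes were followed here among the 22520 features of a bulk RNA-seq expression table. They were taken by gene symbol, 5 from the IFIT family (*Ifit1*, *Ifit2*, *Ifit3*, *Ifit3b*, *Ifit1bl1*) and 4 from the IFITM family (*Ifitm1*, *Ifitm2*, *Ifitm3*, *Ifitm10*). The set was chosen with its DADA-against-DMSO differences in these same libraries already known, so those differences are given as a description, without a test. The libraries came from splenic mouse CD8+ T cells kept under anti-CD3 and anti-CD28 stimulation with IL-2 and harvested on day 6. From day 3, 4 cultures received 40 µM DADA (diisopropylamine dichloroacetate, an inhibitor of pyruvate dehydrogenase kinase) and 4 received an equal volume of DMSO, the solvent. All 8 libraries thus carry the same stimulation, and the comparison is about the added drug; the labels name no allele, and each group has 4 replicates.

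IFIT proteins are helical RNA-binding proteins of the cytosol. IFIT1 recognises RNA that lacks the cap methylation of host messengers and blocks its translation, and IFIT2 and IFIT3 join it in complexes. IFITM proteins are small membrane proteins that hinder the fusion of incoming viruses with cellular membranes, IFITM1 mainly at the cell surface, IFITM2 and IFITM3 mainly in endosomes. Both families are classical targets of type I interferon, whose receptor signals to a complex with STAT2 and IRF9 that binds interferon-stimulated response elements (ISRE) in promoters. T cells are known to hold some IFITM protein at rest.

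Expression was deposited as FPKM, a measure corrected for the length of a transcript and the depth of its library, so levels of different genes can be set beside each other. Each library's FPKM added up to between 450473 and 456939 with DMSO and between 438299 and 449480 with DADA, without overlap. A depth of 13670000 to 16410000 fragments per library with DMSO and 15110000 to 18920000 with DADA was estimated from the steps between low values. It was the depth, of those searched, that put the largest share of those values close to whole fragments, 38.9% to 43.8%. The chance share at a depth fixed beforehand is 20%, and a share picked as the largest of a search would lie above that. All 5 CD8 T cell markers were detected, with a summed level of 674 to 680 FPKM with DMSO and 776 to 805 FPKM with DADA, and all 5 were higher with DADA by limma's adjusted p. Of the 6 myeloid markers, *Csf1r* and *Adgre1* were listed at 0 in every library, and the 6 summed to 0 to 0.146 FPKM with DMSO and 0.142 to 0.404 with DADA. *Mpeg1* (0 to 0.0624 against 0.0891 to 0.215 FPKM) and *Itgam* (0 to 0.0173 against 0.0193 to 0.0407) were above the DMSO range in every DADA library, below the filter. *Pax5* was at 0 in every library, and the 5 B cell markers summed to 2.59 to 3.54 FPKM with DMSO and 2.36 to 3.09 with DADA. Only 1 of these 5 passed the filter, and it made up nearly all of the sum. The 5 dendritic cell markers summed to 3.69 to 4.61 FPKM with DMSO and to 1.89 to 2.48 with DADA. *Zbtb46* alone carried this fall (3.64 to 4.56 against 1.72 to 2.36 FPKM), *Clec9a* was at 0 in every library, and *Flt3* (0 against 0.0218 to 0.0464 FPKM) and *Xcr1* (0 to 0.0454 against 0.0750 to 0.131) went the other way, below the filter. The 3 NK cell markers summed to 13.3 to 14.2 FPKM with DMSO and 10.1 to 11.2 with DADA, where *Eomes* was lower with DADA, while *Klrb1c* was above the DMSO range in every DADA library (0 to 0.0484 against 0.144 to 0.249 FPKM). The 3 CD4 T cell markers summed to 16.1 to 17.2 against 15.2 to 15.7 FPKM. Nearly all of this sum was *Zbtb7b* (15.9 to 16.7 against 14.8 to 15.3 FPKM), which was lower with DADA. *Foxp3* was above the DMSO range in every DADA library (0.0426 to 0.103 against 0.187 to 0.268 FPKM), below the filter. The 4 erythroid markers summed to at most 0.241 FPKM. The part of these marker differences in the results was not tested. In bulk RNA, fewer expressing cells and less RNA per cell cannot be told apart.

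The promoters are shown first because the ISRE is the element through which the 2 families are known to respond. RefSeq promoter windows on GRCm38.p6, from 250 bases before to 50 after each transcription start, were found for all 9 genes (13 windows). An ISRE-like core was defined as GAAANNGAAA on either strand, with N any base. It occurred in 7 windows of 6 of the 9 genes and in 1131 of all 32851 windows (3.44%). At least 2 cores stood in 1 window in 4 of the 9 genes, among them *Ifit3* and *Ifit3b*, whose windows are nearly the same. Of all windows, 74 (0.225%) held at least 2, a share of windows and not of genes. Since the families are known interferon targets, though not every gene need be one, such matches describe the windows and no factor's binding was measured here. The stretches below are written 5′ to 3′ on the strand of the gene, with the ISRE-like cores in capitals.
Ifit1: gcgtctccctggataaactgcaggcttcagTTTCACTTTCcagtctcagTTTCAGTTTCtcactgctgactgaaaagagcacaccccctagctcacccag
Ifit3: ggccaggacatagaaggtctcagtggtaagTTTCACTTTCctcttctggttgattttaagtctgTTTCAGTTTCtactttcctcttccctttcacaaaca
Ifit1bl1: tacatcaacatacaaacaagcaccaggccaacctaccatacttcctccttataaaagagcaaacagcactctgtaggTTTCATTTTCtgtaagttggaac
Ifitm2: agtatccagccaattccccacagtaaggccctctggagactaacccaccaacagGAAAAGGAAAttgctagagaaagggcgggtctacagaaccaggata
Ifitm3: GAAAAGGAAActtctgaGAAACCGAAActg

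The *Ifit1* stretch lies at chr19:34640755-34640854 (+ strand), and its cores begin at positions -104 and -85 from the start. The *Ifit3* stretch lies at chr19:34583343-34583442 (+ strand), with cores that begin at -156 and -122. The same 100 bases stand upstream of *Ifit3b* at chr19:34607739-34607838 (+ strand), and over 260 aligned bases the windows of *Ifit3* and *Ifit3b* were 99.2% identical. The windows of *Ifit1* and *Ifit3*, by comparison, were 60.3% identical over 262 aligned bases. *Ifit1bl1* (chr19:34599428-34599527, - strand) held 1 core in each of its 2 annotated windows, at -23 in the one shown. In the IFITM family, the *Ifitm2* core began at -46 (chr7:140955962-140956061, - strand). Both *Ifitm3* cores lay past the start, at positions 3 and 20 of the transcript (chr7:141010713-141010742, - strand). Between them a match to the other interferon element, the GAS core TTCNNNGAA, spanned positions 14 to 22 and overlapped the second ISRE-like core. The GAS core occurred in 2726 of all windows (8.3%), and among these genes also once upstream of *Ifit2*. No ISRE-like core stood in the windows of *Ifit2*, *Ifitm1* or *Ifitm10*.

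All 5 IFIT genes were higher in DADA-treated CD8+ T cells than in DMSO-treated cells in every library, with the largest ratio for *Ifit1*. *Ifit1* (ENSMUSG00000034459), the sensor of incompletely methylated caps, stood at 0.415, 0.406, 0.232 and 0.541 FPKM in DMSO replicates 1 to 4 and at 18.4, 16.7, 16.2 and 16.5 FPKM in DADA replicates 1 to 4. No DMSO library reached 1 FPKM, and the 4 DADA libraries lay close together, far above them. The ratio of the means was 42.5, from 29.9 for the lowest DADA against the highest DMSO library to 79.2 for the reverse. On the log2(FPKM + 1) scale, which understates the change of low genes, the difference was 3.68 (SE 0.07), and only 5 of 10666 features analysed had a larger one. With a pseudocount of 0.1 it was 5.13. By the estimated depth, the DMSO values rest on 8 to 21 fragments per library and the DADA values on 650 to 858.

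*Ifit2* (ENSMUSG00000045932), a partner of IFIT1 known to promote cell death when overexpressed, was the IFIT gene with the highest level in control cells. It stood at 4.01, 3.38, 4.36 and 4.44 FPKM with DMSO and at 9.91, 8.44, 9.38 and 9.18 FPKM with DADA. The groups did not overlap, but the ratio of the means was 2.28 (1.90 to 2.93), the smallest in the family among the 4 genes with a ratio. The log2 difference was 1.02 (SE 0.07).

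The open reading frames of *Ifit3* (ENSMUSG00000074896) and *Ifit3b* (ENSMUSG00000062488), each 1212 bases, were 99.1% identical. *Ifit3* rested at 0.154, 0.239, 0.260 and 0.252 FPKM with DMSO and stood at 4.19, 4.90, 4.42 and 4.84 FPKM with DADA. Every DADA library was far above every DMSO library, with a ratio of means of 20.3 (16.1 to 31.8) and a log2 difference of 2.19 (SE 0.06). *Ifit3b* was listed at 0 FPKM in DMSO replicates 1 and 4 and at 0.0698 and 0.0620 FPKM in DMSO replicates 2 and 3, against 0.770, 0.818, 1.03 and 0.757 FPKM with DADA. It was thus near the floor in all control libraries, where it rests on at most 2 estimated fragments, and it reached 1 FPKM in 1 library only. Of the 150-base windows of the transcripts, 18.5% in *Ifit3* and 16.0% in *Ifit3b* were shared with the other gene, so fragments from the shared stretches could be assigned to either, and the split between the pair is uncertain. In the DADA libraries, *Ifit3* exceeded *Ifit3b* by 4.30 to 6.40 times (mean 5.53, SD 0.91).

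*Ifit1bl1* (ENSMUSG00000079339), an Ifit1-like gene of the mouse cluster, was 77.2% identical to *Ifit1* in its open reading frame. It shared no 150-base window with transcripts of the other family genes or of *Ifit1bl2*, the only ones searched. Its levels were 0.0624, 0.0764, 0.0531 and 0.0962 FPKM with DMSO and 1.26, 1.75, 2.25 and 1.72 FPKM with DADA. The groups were far apart, but the DADA libraries also differed among themselves, with a coefficient of variation of 23.3%, against 5.75% for *Ifit1*. The ratio of the means was 24.2 (13.1 to 42.4) and the log2 difference 1.34 (SE 0.10).

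**Figure D1:**
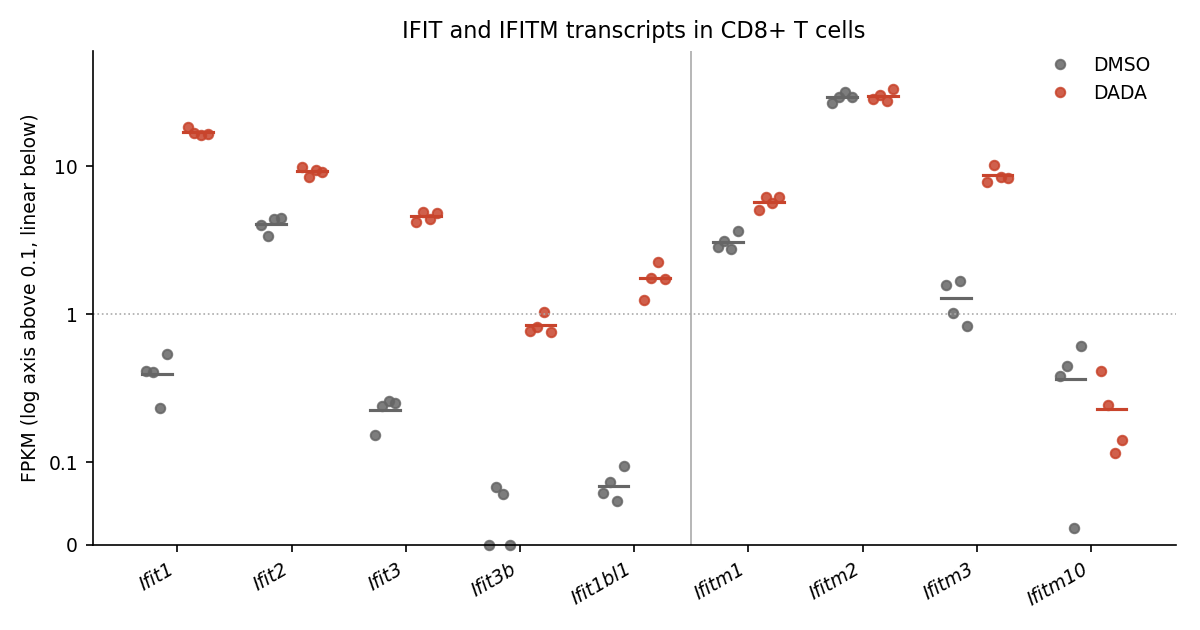
FPKM of the 9 genes in the 4 DMSO (grey) and 4 DADA (red) libraries, 1 point per library, with a bar at the group mean where no library is listed at 0; the axis is logarithmic above 0.1 and linear below, and the dotted line marks 1 FPKM. The DADA points lie above all DMSO points for 7 genes and overlap them for *Ifitm2* and *Ifitm10*, and *Ifit1* moves from 0.232 to 0.541 FPKM up to 16.2 to 18.4 FPKM.

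The 4 IFITM genes differed in how far they moved, from a ratio of means of 6.78 for *Ifitm3* to 1.02 for *Ifitm2*. *Ifitm3* (ENSMUSG00000025492), the endosomal family member best known for restricting influenza virus, showed the largest ratio of the 4. It stood at 1.59, 1.02, 1.67 and 0.833 FPKM with DMSO and at 7.80, 10.1, 8.45 and 8.33 FPKM with DADA. No DADA library overlapped the control range, and the ratio of the means was 6.78 (4.68 to 12.1), with a log2 difference of 2.10 (SE 0.13). The DMSO values rest on an estimated 8 to 16 fragments and varied by 32.3% (coefficient of variation), about as much as those of *Ifit1* (31.9%).

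*Ifitm1* (ENSMUSG00000025491), the cell surface member, lay at 2.86, 3.11, 2.77 and 3.64 FPKM with DMSO and at 5.03, 6.17, 5.62 and 6.22 FPKM with DADA. The lowest DADA library was above the highest control library, and the ratio of the means was 1.86 (1.38 to 2.24). The log2 difference was 0.72 (SE 0.08).

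*Ifitm2* (ENSMUSG00000060591), the close endosomal relative of *Ifitm3*, was the most abundant of the 9 genes, and its groups overlapped. Its values were 26.6, 29.3, 31.5 and 29.3 FPKM with DMSO and 28.5, 29.98, 27.5 and 32.9 FPKM with DADA. DADA replicate 4 was the highest and DMSO replicate 1 the lowest of the 8 libraries, with a mean of 29.2 FPKM ± 2.0 (SD, n = 4) against 29.7 FPKM ± 2.34 (SD, n = 4) and a log2 difference of 0.02 (SE 0.06). *Ifitm2* and *Ifitm3* shared 79.6% of their aligned open reading frame bases and no 150-base window. Each held an ISRE-like core, shown above, on different sides of the start.

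*Ifitm10* (ENSMUSG00000045777), a more distant member with 59.7% to 67.9% of aligned open reading frame bases in common with the other three, was barely detected. It was listed at 0.381, 0.445, 0.0203 and 0.607 FPKM with DMSO and at 0.415, 0.244, 0.116 and 0.142 FPKM with DADA. The values scattered over the same range in both groups, with coefficients of variation of 68.2% and 59.1%, and no library reached 1 FPKM.

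In all, every DADA library was above every DMSO library for 7 of the 9 genes. Of the 9 genes, 7 passed the filter of at least 1 FPKM in at least 4 libraries (not *Ifit3b* and *Ifitm10*), and *Ifit1*, *Ifit3* and *Ifit1bl1* passed it through the DADA libraries alone, so they had to differ. Of the 7 that passed, 6 had no overlap in this direction, a pattern that 28.4% of the 10666 features that passed showed. By limma's adjusted p across all features, 30.9% of features were called higher and 35.3% lower with DADA. The 7 genes held 6 calls for higher and 0 for lower, and since the genes were chosen on this contrast nothing is read from either count.

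The order of the levels changed with treatment. With DMSO the order of the mean FPKM was *Ifitm2*, *Ifit2*, *Ifitm1*, *Ifitm3*, *Ifit1*, *Ifitm10*, *Ifit3*, *Ifit1bl1* and *Ifit3b*. In that order the ranges of *Ifit2* and *Ifitm1*, of *Ifit1* and *Ifitm10*, of *Ifitm10* and *Ifit3*, and of *Ifit1bl1* and *Ifit3b* overlapped, while the other neighbours were apart. With DADA the order was *Ifitm2*, *Ifit1*, *Ifit2*, *Ifitm3*, *Ifitm1*, *Ifit3*, *Ifit1bl1*, *Ifit3b* and *Ifitm10*, where only *Ifit2* and *Ifitm3* overlapped.

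The makeup of each family is a view that sets its members against each other within a library. The 5 IFIT genes summed to 4.78 FPKM ± 0.49 (SD, n = 4) with DMSO and to 33.3 FPKM ± 0.83 (SD, n = 4) with DADA. *Ifit2* gave 84.6% ± 3.04 of the sum with DMSO and 27.7% ± 1.22 with DADA. *Ifit1* gave 8.37% ± 2.52 of it with DMSO and 50.8% ± 1.93 with DADA. The largest part of the family's sum was thus *Ifit2* in control cells and *Ifit1* in all 4 DADA libraries (48.7% to 53.2%).

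*Ifit3* gave 4.75% ± 1.04 of the IFIT sum with DMSO and 13.8% ± 1.32 with DADA. The IFITM sum was 33.9 FPKM ± 1.87 with DMSO and 44.4 FPKM ± 3.11 with DADA. *Ifitm2* gave 86.0% ± 1.32 of this sum with DMSO and 67.0% ± 2.12 with DADA, and remained the largest part in all 8 libraries. *Ifitm3* went from 3.78% ± 1.26 to 19.5% ± 1.85 (SD, n = 4 each).

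**Figure D2:**
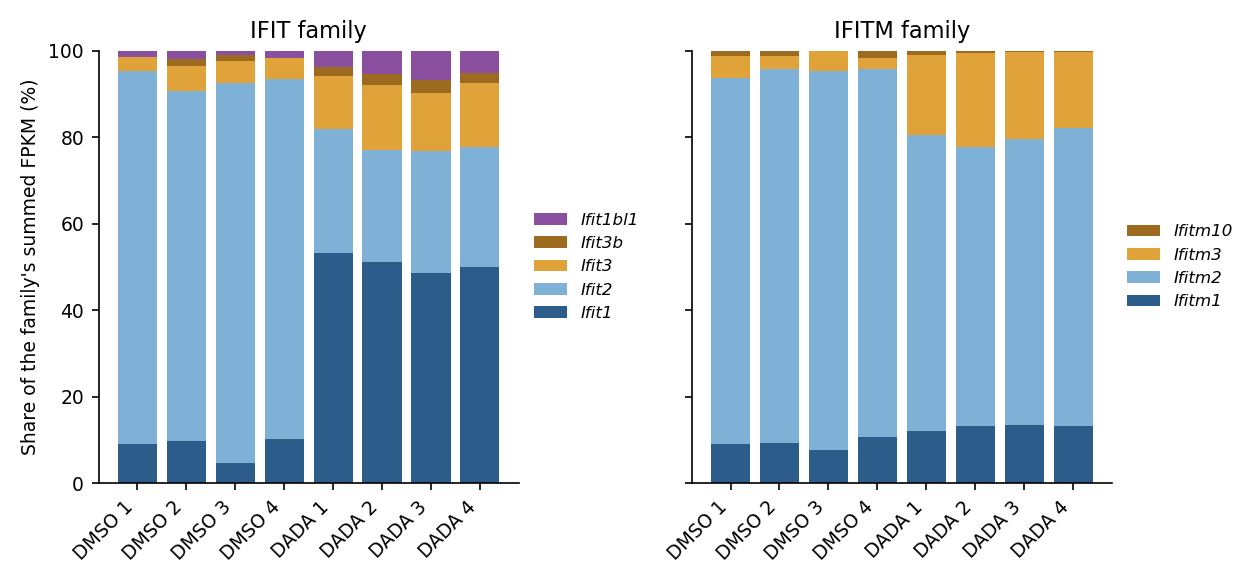
Share of each gene, in percent, in the summed FPKM of its family, 1 stacked bar per library, with the IFIT family on the left and the IFITM family on the right. *Ifit1* fills 4.66% to 10.2% of the IFIT bars with DMSO and 48.7% to 53.2% with DADA, and *Ifitm2* fills 84.7% to 87.6% and 64.5% to 69.1% of the IFITM bars.

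Within a group, no library was the highest for all genes. DMSO replicate 4 was highest for 5 genes (*Ifit1*, *Ifit2*, *Ifit1bl1*, *Ifitm1* and *Ifitm10*) and lowest for *Ifitm3*, and DMSO replicate 3 was highest for *Ifit3*, *Ifitm2* and *Ifitm3* and lowest for 4 others. Among the DADA libraries, replicate 1 was highest for *Ifit1*, *Ifit2* and *Ifitm10* and lowest for *Ifit3*, *Ifit1bl1*, *Ifitm1* and *Ifitm3*. The DADA library with the highest *Ifit1* was thus the one with the lowest *Ifit3*. The median coefficient of variation over the features analysed was 4.89% with DMSO and 4.63% with DADA, and every coefficient computed for the 9 genes was above that of its group.

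The genes of the interferon pathway upstream of both families were counted from a list of 16, picked with results of these data known. With DADA, 8 of the 14 tested were called higher and 4 lower, where 30.9% and 35.3% of all features were called, with a median log2 difference of 0.15, against -0.02 over all features. *Ifnb1* and *Ifna4*, which encode type I interferons, were both listed at 0 in all 4 DMSO libraries and below the filter. *Ifnb1* stood at 0.536, 0.412, 0.326 and 0.133 FPKM and *Ifna4* at 0.421, 1.10, 0.803 and 0.842 FPKM in DADA replicates 1 to 4. Both were thus listed above 0 in every DADA library, at low levels that may rest on few fragments, which were not estimated for them. The interferon alpha genes are similar in sequence, so reads of other copies may be counted in *Ifna4*.

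*Stat2* and *Irf9*, which act together in the type I interferon response, were both higher. *Stat2* rose from 11.9 FPKM ± 0.16 to 32.5 FPKM ± 0.58 (log2 difference 1.38, limma adjusted p = 7.74e-11) and *Irf9* from 12.0 FPKM ± 0.74 to 29.8 FPKM ± 0.88 (1.25, limma adjusted p = 5.22e-09). *Irf7*, the factor that amplifies interferon alpha transcription, showed the largest rise of the list, from 1.15 FPKM ± 0.09 to 29.5 FPKM ± 0.43 (3.83, limma adjusted p = 2.68e-12). *Ifnar1*, a chain of the type I interferon receptor, showed the largest fall, from 41.4 FPKM ± 0.61 to 31.9 FPKM ± 0.99 (-0.37, limma adjusted p = 1.49e-06; SD, n = 4 throughout). The other receptor chain, *Ifnar2*, had a log2 difference of -0.07 (limma adjusted p = 0.215). *Ifng*, the type II interferon and an effector cytokine of CD8+ T cells, rose from 404 FPKM to 649 FPKM (0.68, limma adjusted p = 6.39e-08).

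Of the 7 negative regulators of the pathway, all tested, 6 were called higher with DADA and 0 lower, where 30.9% and 35.3% of all features were called (median log2 difference 0.22); the list was picked with results of these data known. *Usp18*, which removes ISG15 and silences the type I receptor, stood at 0.919, 0.494, 0.505 and 0.632 FPKM with DMSO and at 29.9, 31.8, 30.2 and 30.02 FPKM with DADA (log2 difference 4.27). Like *Ifit1*, it was under 1 FPKM in every control library and passed the filter through the DADA libraries alone, so it had to differ, and its value is a description. *Socs3*, an inhibitor of cytokine receptor signalling, rose from 5.37 to 13.8 FPKM (1.22, limma adjusted p = 6.89e-08). The remaining 4 that passed the test had log2 differences of 0.14 to 0.33, and *Pias1* had -0.09 (limma adjusted p = 0.192).

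Of the 7 partners of the IFIT proteins and cap enzymes tested, 1 was called higher and 4 lower (median log2 difference -0.13), where 30.9% and 35.3% of all features were called, and 2 of these outcomes, for *Cmtr1* and *Rnmt*, changed when single libraries were left out. *Eif3c* and *Eif3e*, subunits of the translation initiation factor that IFIT proteins bind, fell from 441 to 321 FPKM (-0.46, limma adjusted p = 2.98e-08) and from 334 to 263 FPKM (-0.34, limma adjusted p = 1.01e-06). *Tbk1*, a kinase of the antiviral sensing pathway, rose (0.21, limma adjusted p = 0.0012), and *Mavs*, the mitochondrial adaptor of the same pathway, fell (-0.22, limma adjusted p = 0.000663). *Cmtr1*, which adds the cap methylation that shields RNA from IFIT1, had a log2 difference of 0.14 (limma adjusted p = 0.347), with DADA replicate 4 at 21 FPKM and the other three at 32.4 to 34.1 FPKM. Without that library its difference was 0.30 (limma adjusted p = 9.95e-05). *Rnmt*, the cap guanine methyltransferase, had -0.13 (limma adjusted p = 0.0374), a call lost when DMSO replicate 1, 3 or 4 or DADA replicate 1 or 2 was left out (limma adjusted p = 0.0612 to 0.101).

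Of the 6 partners and modifiers of IFITM proteins, 1 was called higher and 2 lower (median log2 difference -0.00), beside the same 30.9% and 35.3% of all features. *Cd81*, a tetraspanin found with IFITM1 at the surface, rose from 21.5 FPKM ± 1.16 to 27.3 FPKM ± 0.58 (0.34, limma adjusted p = 3.33e-05). *Nedd4*, a ubiquitin ligase of IFITM3, fell from 34.1 to 31.2 FPKM (-0.13, limma adjusted p = 0.00115), and *Vapa*, a binding partner of IFITM3, from 42.9 to 39.7 FPKM (-0.11, limma adjusted p = 0.0157). *Zdhhc20*, a palmitoyltransferase of IFITM3, had 0.06 (limma adjusted p = 0.382). Among 11 relatives outside the 9 genes, only *Prrt1* passed the filter (log2 difference -0.08, limma adjusted p = 0.442). *Ifitm6* was listed at 0 in all 8 libraries, and *Ifitm7* at 0 in all DMSO libraries and at 0.0317 to 0.108 FPKM with DADA. *Ifit1bl2*, which shares 1.24% of the windows of *Ifit1*, was at most 0.147 FPKM in any library.

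**Figure D3:**
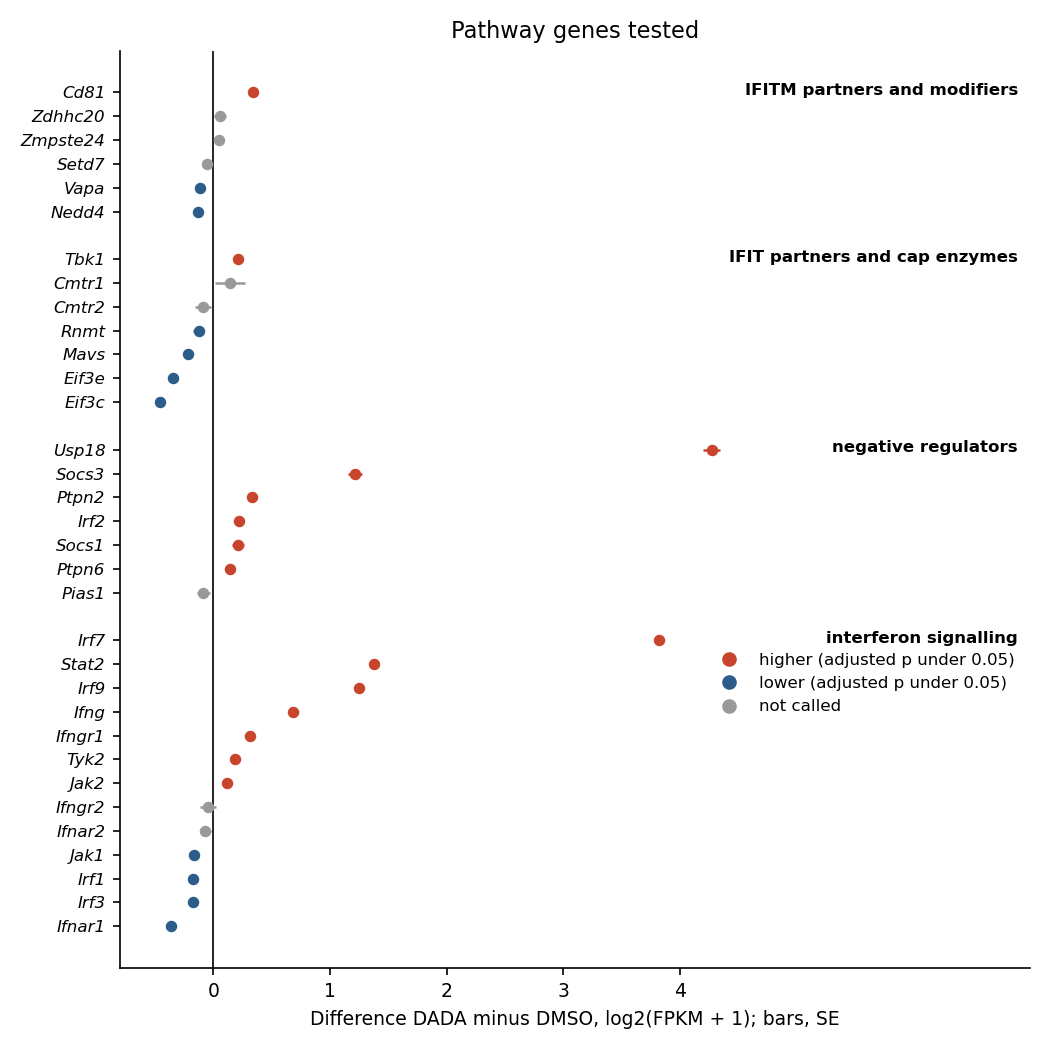
Difference DADA minus DMSO on the log2(FPKM + 1) scale for tested genes of the 4 lists, with SE bars, coloured by limma's adjusted p, where *Usp18* passed the filter through the DADA libraries alone. *Usp18* (4.27) and *Irf7* (3.83) lie far to the right, whereas the partners of the IFIT and IFITM proteins lie between -0.46 and 0.34.

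Genes beside the families were examined because the Ifit genes lie in one cluster on chromosome 19 and *Ifitm1*, *Ifitm2* and *Ifitm3* in one on chromosome 7. The 3 nearest protein-coding genes on each side were taken, leaving out the family genes and the relatives above, which can lie nearer. Of these neighbours, 8 passed the filter, with 4 called higher, 1 lower and a median log2 difference of 0.16, beside the same shares of all features. Around the Ifit cluster, *Lipa* (lysosomal acid lipase) had a log2 difference of -0.01 (limma adjusted p = 0.793) and *Fas* (a death receptor) -0.09 (limma adjusted p = 0.153). On the other side *Slc16a12* was at 0 in every library, *Pank1* was below the filter, and *Kif20b*, a mitotic kinesin, fell from 19.3 FPKM ± 0.90 to 12.8 FPKM ± 0.35 (-0.55, limma adjusted p = 8.31e-07). None of the tested neighbours of the Ifit cluster was higher with DADA. *Ch25h*, itself an interferon-induced gene, was at 0 in all DMSO libraries and at 0 to 0.176 FPKM with DADA.

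Around *Ifitm1* to *Ifitm3*, by contrast, all 4 tested neighbours were higher. *B4galnt4*, a glycosyltransferase gene and the first neighbour taken on the *Ifitm3* side, rose from 0.988 FPKM ± 0.15 to 2.12 FPKM ± 0.22 (0.65, limma adjusted p = 3.61e-05). *Sigirr*, a damping receptor of the interleukin receptor family, rose from 37.1 FPKM ± 1.16 to 52.7 FPKM ± 1.69 (0.50, limma adjusted p = 3.97e-07). *Pkp3* and *Pgghg* rose by 0.30 (limma adjusted p = 0.00032) and 0.29 (limma adjusted p = 0.000654). *Ifitm2* lies inside this stretch with a log2 difference of 0.02. Beside *Ifitm10*, *Ctsd* (cathepsin D) had 0.02 (limma adjusted p = 0.523), and the other 4 listed neighbours were at 0 in every library. The difference between the neighbourhoods was not tested.

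**Figure D4:**
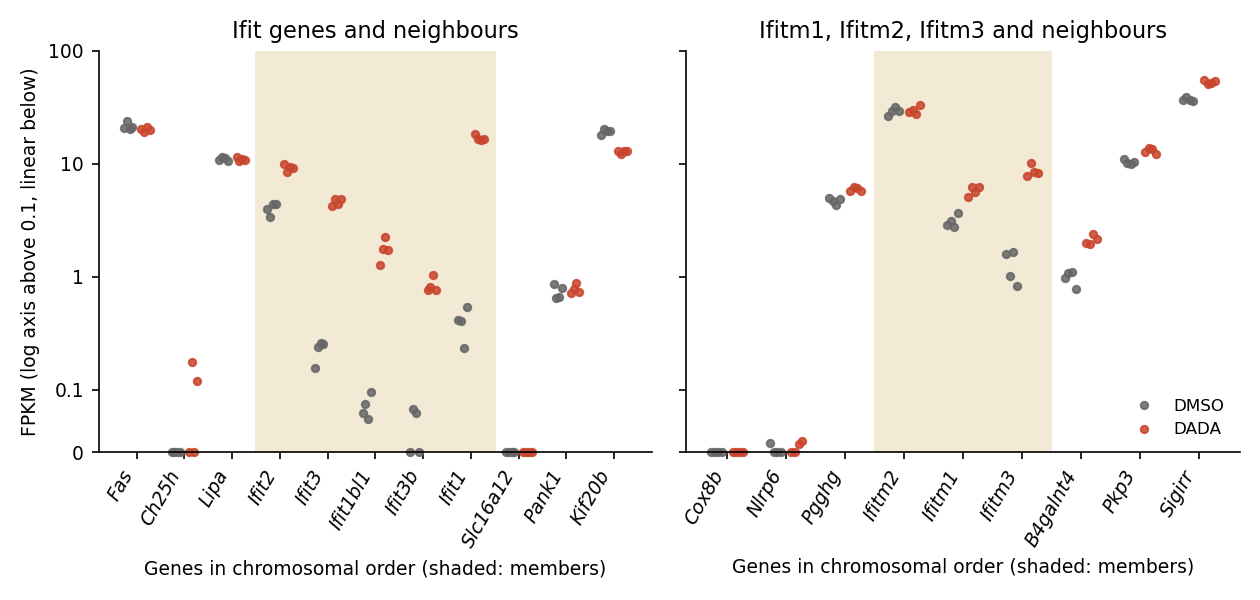
FPKM per library for the genes of the Ifit cluster and of the *Ifitm1* to *Ifitm3* cluster (shaded) and their 3 nearest protein-coding neighbours on each side. Relatives of the families are left out. Genes are in chromosomal order, with DMSO in grey and DADA in red, and the axis is logarithmic above 0.1 and linear below. *Lipa* and *Fas* overlap between the groups while *Kif20b* is lower with DADA, and *Pgghg*, *B4galnt4*, *Pkp3* and *Sigirr* are higher.

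The genes whose pattern over the 8 libraries was nearest to each family gene were found by the root-mean-square difference of log2(FPKM + 1), each gene set to its own DMSO mean. *Ifit1* was nearest to *Hilpda* (0.07) and *Mgarp* (0.11), *Ifit2* to *Map3k1* (0.06), and *Ifit3* to *Mt1* (0.05) and *Bnip3l* (0.07). *Ifit1bl1* was nearest to *Id2* (0.10) and *Gfra1* (0.10). Of the IFITM genes, *Ifitm1* was nearest to *Gm49391* (0.08) and *Frmd4b* (0.09), *Ifitm2* to *4931406C07Rik* (0.04) and *Pex13* (0.05), and *Ifitm3* to *Plcxd1* (0.13) and *Smox* (0.15). None of the genes named here is in the interferon list, but only the 2 nearest patterns per gene were taken. A gene of that list can lie close behind them. *Irf7*, for example, had a log2 difference of 3.83, against 3.68 for *Ifit1*. The measure weighs the size of the step between the groups most, and a likeness in it is a description of these 8 libraries. Adding 1 to each FPKM shrinks the step of low genes, so near patterns can have unlike ratios of means. That ratio was 42.5 for *Ifit1* against 13.5 for *Hilpda*, 20.3 for *Ifit3* against 4.52 for *Mt1*, and 24.2 for *Ifit1bl1* against 2.58 for *Id2*. For *Ifit2* and *Map3k1* it was 2.28 and 2.2, and for *Ifitm3* and *Plcxd1* 6.78 each.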

How the data were processed

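The authors deposited FPKM values, 1 per feature and library, for 8 libraries of paired 150-base reads. The submitters' processing notes list HISAT2 2.0.5 and StringTie 1.3.3 among other tools, and the builds GRCm39 and GRCh38, with no role or order, so no coordinates of the table are given. Reads were not re-aligned. The 9 genes, the gene lists and the comparisons were chosen with earlier results of these data known. FPKM were used as deposited and analysed as log2(FPKM + 1) for the 10666 features with at least 1 FPKM in at least 4 of 8 libraries, with limma 3.58.1 (R 4.3.3; 1 treatment term, mean-variance trend, Benjamini-Hochberg adjustment over all features; call at an adjusted p under 0.05). The fit was tested on simulated data. The depth is unknown from FPKM and was estimated over 4431 genes with 1 transcript in GENCODE M21, searching 8000000 to 25000000 fragments. All 9 family genes were named, with the list genes that moved most or touch a family gene, the neighbours, and the 2 nearest patterns per gene that passed the filter. A few genes within this rule are not reported here by name, but counts and sums over lists include them. Promoter windows came from RefSeq (GRCm38.p6) and open reading frames, the longest from ATG to stop, from GENCODE M21; proteins were not compared. Alternatives were another pseudocount, no filter, 2 other scalings, the replicate number as a block, summing similar copies, and leaving out each library. The labels call the replicates biological; whether cultures shared a mouse is not given in the sources used here, so p-values measure the spread between these cultures.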

Additional observations from a re-analysis of the deposited data

Results flagged for a closer look

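Within groups of 4 libraries, 7 of 104 groups held a single value far from the other three (by Dixon's 95% limit on the gap to the nearest value over the whole range), and chance gives about 1 in 20. None was a value of the 9 family genes. With DADA, replicate 4 was low for *Cmtr1* (ratio 0.871, 21 FPKM against 32.4 to 34.1) and for *Nedd4* (0.947, 30.2 FPKM against 31.5). DADA replicate 1 was high for *Zdhhc20* (0.875, 24.6 FPKM against 20.8 to 21.3) and DADA replicate 2 for *Usp18* (0.861, 31.8 FPKM against 29.9 to 30.2). With DMSO, replicate 4 was low for *Irf3* (0.854, 27.0 FPKM against 28.1 to 28.3), replicate 1 was low for *Ptpn2* (0.834, 70.4 FPKM against 72.3 to 72.7), and replicate 3 was high for *Tyk2* (0.887, 16.6 FPKM against 15.9 to 16.0).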

How the results depend on the processing

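Of the 7 family genes analysed, the 6 higher with DADA kept their direction under every alternative in which they were analysed, and *Ifitm2* was not called under any. The log2 difference of *Ifit1* ranged from 3.62 to 5.13, of *Ifit3* from 2.16 to 3.86 and of *Ifitm2* from -0.02 to 0.06, the first 2 highest with a pseudocount of 0.1. The number called higher was 3 to 6 when 1 library was left out. It fell to 3 of 4 analysed without DADA replicate 1, 2, 3 or 4, because *Ifit1*, *Ifit3* and *Ifit1bl1* then no longer passed the filter. With the features of all 8 libraries kept, a choice made after seeing the data, it was 6 of 7 without any library. It was 7 with no filter or with libraries rescaled to the same total, where *Ifit3b* is added, and 5 of 6 with similar copies summed. The rescaling used a common total larger than any deposited one, so every value above 0 rose. With it, 11480 features passed the filter in place of 10666, and the pseudocount weighed less. The pathway lists gave 16 higher (15 to 20 over the alternatives) and 10 lower (8 to 10), and the neighbours 4 and 1 throughout. After each gene's group mean was subtracted, the remaining deviations of same-numbered DMSO and DADA libraries correlated at 0.0953, -0.12, -0.0877 and 0.0751. In these deviations, no DMSO library correlated best with the DADA library of its own number. Values this small, from 4 libraries per group, show no pairing by number but cannot decide whether same-numbered cultures were paired. With the replicate block, 6 family genes were called, and 6995 features in place of 7064. *Vapa* lost its call (limma adjusted p = 0.0626) and *Zmpste24* gained one (0.032) with libraries rescaled, *Rnmt* also lost its call with no filter (0.057) or rescaled libraries (0.119), and *Ifnar2* was called without DADA replicate 2 (0.0241). Low levels limit *Ifit3b* and *Ifitm10* most.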
